A study of Mus musculus with 6 samples.

Results

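NF-kappaB is a family of dimeric transcription factors that carries signals from cytokine and pattern-recognition receptors to the nucleus. Its subunits (here Nfkb1, Nfkb2, Rela and Relb), its classical I-kappaB inhibitors (Nfkbia, Nfkbib and Nfkbie) and 3 of its target genes (Tnfaip2, Tnfaip3 and Birc3) are described here in endothelial cells that overexpress the adhesion molecule L1CAM. These 10 genes were set by name, with no threshold on their values, though earlier results of these data were known when they were chosen. A gene was read through the probe set annotated with its symbol and no other, the brightest one where a gene had several. Of the 10 genes, 9 were matched in this way, each by 1 probe set, out of 19938 genes tested; Nfkb1 was not matched to a probe set and is not analysed here. All 9 lay above the median of every array (6.55 to 6.58, log2).

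The cells came from lung endothelium of C57BL/6 mice and were grown to confluence over 4 days with 20% serum. One group carried the pcDNA3.1/Hygro(-) plasmid with the full-length mouse L1cam sequence and the other the same plasmid without insert, so that both groups had gone through transfection and share the plasmid. Each group had 3 arrays, labelled as biological replicates of independent experiments. The labels name the transfectant of each group but not whether it was a pool or a clone, and no inducible or cell-type promoter is named. An effect of L1CAM can therefore not be told apart from other differences between the transfectants. L1cam read 6.50, 6.77 and 7.31 (log2) on the control arrays and 10.49, 10.60 and 10.73 on the L1CAM arrays, so the arrays fell on their labelled sides.

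All values below are deposited RMA expression values on the log2 scale, and a difference is L1CAM minus control. A gene was called when the limma test, adjusted over all genes by Benjamini-Hochberg, gave a p under 0.05. All 12 endothelial markers examined lay above the median of all 6 arrays, and their list mean was 11.34 to 11.36 on control and 11.28 to 11.33 on L1CAM arrays; Cldn5 fell (-0.22) and Robo4 rose (0.44). Of the 12, 10 had a difference below 0 (median -0.08), and the groups did not overlap in 10, beside 34.6% of all genes; the part of this shift in the results below was not tested. No marker of leukocytes (10 measured), epithelium (7) or mural cells and fibroblasts (9) was called by limma. In these lists 1, 0 and 1 had an unadjusted p under 0.05, beside 5788 of all 19938 genes. The leukocyte list mean was 6.11 to 6.23 on control and 5.98 to 6.13 on L1CAM arrays, and 7 of its 10 genes, Ptprc, Itgam and Adgre1 among them, lay below the median of every array, while Cd68, Lyz2 and Cd3e lay above it on all 6. Also above it on all 6 were 2 epithelial markers (Krt8 and Sftpb) and 4 mural and fibroblast markers (Pdgfra, Col1a1, Col1a2 and Myh11). L1CAM replicate 1 stood apart from the other L1CAM arrays: it correlated at 0.9948 and 0.9951 with L1CAM replicates 2 and 3, which correlated at 0.9986 with each other. The main results are therefore also given without it.

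In resting cells the dimers are held inactive by I-kappaB proteins. Signals through the IKK kinase complex lead to breakdown of the inhibitors, and free dimers then activate genes that carry kappaB sites, among them Nfkbia and Tnfaip3, whose products shut the response down again. In endothelial cells the pathway is best known for switching on adhesion molecules and chemokines that draw in leukocytes. It is regulated mainly at the protein level, which arrays do not measure.

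The NF-kappaB genes did not move in one direction in L1CAM cells. The inhibitors Nfkbia and Nfkbie fell, the targets Tnfaip2 and Tnfaip3 rose, and the subunits Nfkb2, Rela and Relb were not called. Of the 9 measured genes, 2 were called higher, against 6.85% of all genes tested, and 2 lower, against 8.19%. Together 4 of 9 were called (44.4%), against 15.0% of all genes. The median difference of the 9 genes was 0.07 and their median absolute difference 0.39, against 0.02 and 0.10 over all genes. The groups did not overlap in 6 of the 9 (66.7%), beside 34.6% of all genes. Without L1CAM replicate 1, 3 were called higher, beside 12.0% of all genes, and 3 lower, beside 12.9%; that fit called 24.8% of all genes in either direction. RNA per cell and the number of cells of a kind cannot be told apart in such bulk samples.

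**Figure D1:**
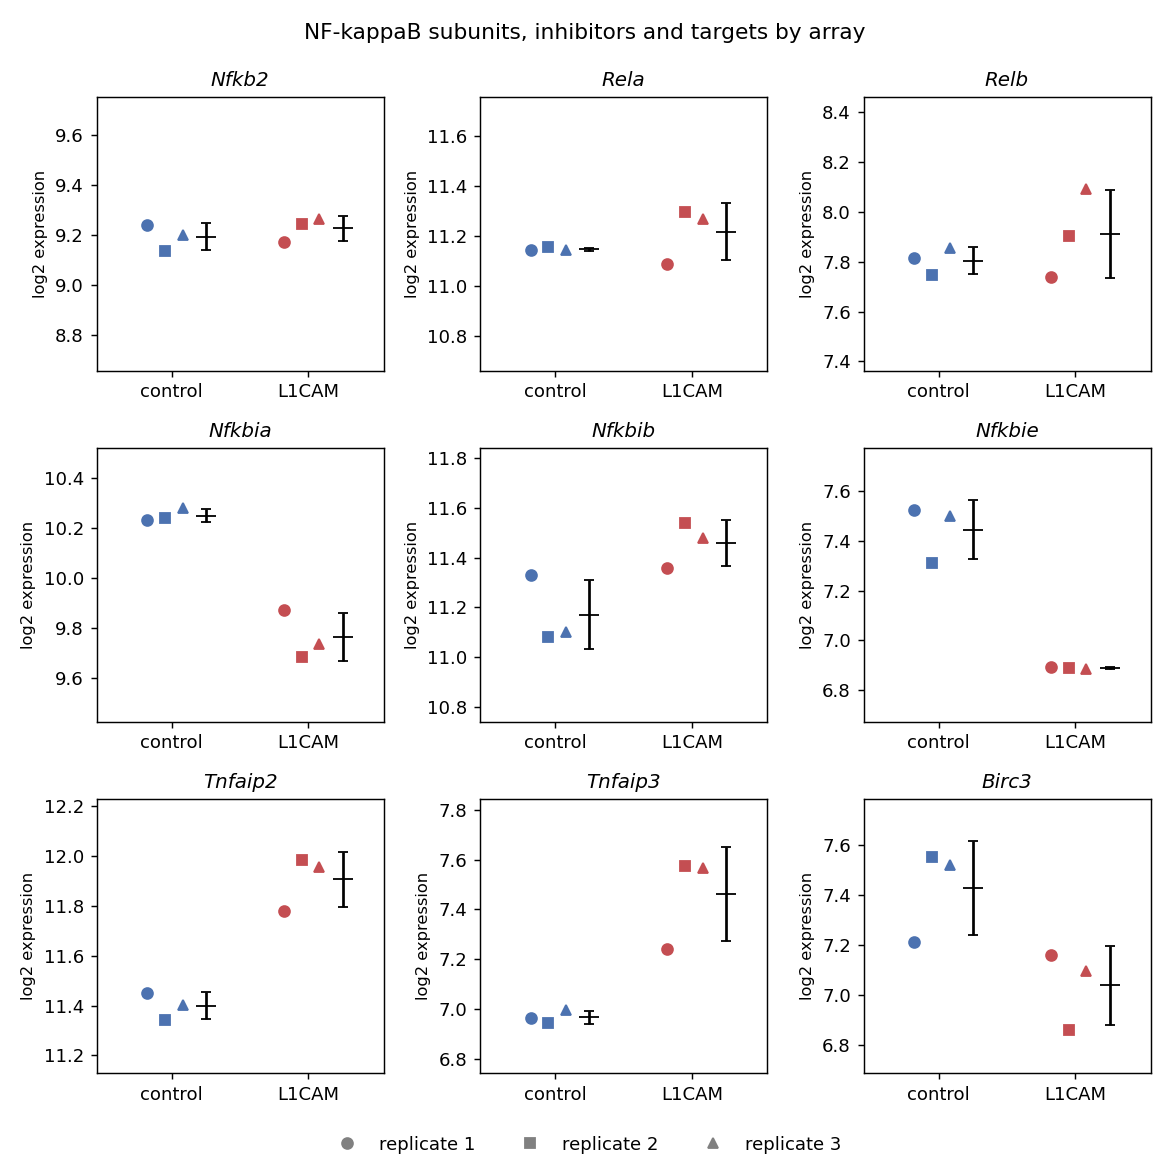
Log2 expression (vertical axes, scaled per gene) of the 9 measured NF-kappaB genes on the 3 control (blue) and 3 L1CAM (red) arrays; symbols mark the replicate number, and black bars the mean and SD of each group. Nfkbia and Nfkbie lie lower and Tnfaip2 and Tnfaip3 higher on all 3 L1CAM arrays, while the groups overlap for Nfkb2, Rela and Relb.

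The subunits make up the DNA-binding dimers. Rela encodes p65, the main activating subunit of the canonical pathway. It read 11.14, 11.15 and 11.14 on the control arrays and 11.09, 11.30 and 11.27 on L1CAM replicates 1, 2 and 3. The control arrays were nearly identical, and the L1CAM arrays lay on both sides of them, replicate 1 below and replicates 2 and 3 above. The difference was 0.07 (SE 0.07, 95% interval -0.09 to 0.23, limma adjusted p = 0.558).

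Nfkb2 encodes the p100 precursor, which both restrains dimers and yields the p52 subunit of the non-canonical pathway. It read 9.24, 9.13 and 9.20 on control and 9.17, 9.24 and 9.26 on L1CAM arrays. The groups overlapped, and the difference of 0.03 (SE 0.06, 95% interval -0.10 to 0.17) was not called (limma adjusted p = 0.753). Relb encodes the partner of p52. Its values were 7.81, 7.75 and 7.86 in control and 7.74, 7.90 and 8.09 in L1CAM cells. L1CAM replicate 1 was the lowest of all 6 arrays and replicate 3 the highest. The difference of 0.11 (SE 0.09, 95% interval -0.11 to 0.32) was not called (limma adjusted p = 0.509). Without L1CAM replicate 1, Rela differed by 0.14 (SE 0.05, adjusted p = 0.113) and Relb by 0.19 (SE 0.07, adjusted p = 0.10), and neither was called. Over all 16 alternative fits the adjusted p ranged from 0.113 to 0.856 for Rela, from 0.10 to 0.933 for Relb and from 0.455 to 0.977 for Nfkb2.

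The 3 classical inhibitors went different ways. Nfkbia encodes I-kappaB-alpha, the inhibitor that is broken down and remade fastest. It read 10.23, 10.24 and 10.28 on control and 9.87, 9.68 and 9.74 on L1CAM arrays. Every L1CAM array lay below every control array, and L1CAM replicate 1 was nearest to them. Nfkbia fell 1.40-fold, from 10.25 ± 0.03 to 9.76 ± 0.10 (SD, n = 3 arrays), by -0.49 (SE 0.06, limma adjusted p = 0.00366).

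Nfkbie encodes I-kappaB-epsilon, a slower inhibitor induced by NF-kappaB itself. It read 7.52, 7.31 and 7.50 on control arrays and 6.89 on each of the 3 L1CAM arrays. The L1CAM arrays were almost equal, replicate 1 included, and all lay below the lowest control array. Nfkbie fell 1.47-fold, from 7.44 ± 0.12 to 6.89 ± 0.005 (SD, n = 3 arrays), by -0.55 (SE 0.07, limma adjusted p = 0.00298). Nfkbia and Nfkbie were called in all 16 alternative fits, with adjusted p between 0.000303 and 0.0466 for Nfkbia and between 0.000756 and 0.0478 for Nfkbie.

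Nfkbib encodes I-kappaB-beta, an inhibitor that is not a strong NF-kappaB target. It read 11.33, 11.08 and 11.10 on control and 11.36, 11.54 and 11.48 on L1CAM arrays. The groups did not overlap, but control replicate 1 lay close to L1CAM replicate 1. The difference was 0.29 (SE 0.08), opposite in sign to those of Nfkbia and Nfkbie, and was not called (limma adjusted p = 0.0607). Without L1CAM replicate 1 it was 0.34 (SE 0.08) and passed (adjusted p = 0.0221), and over the 16 alternatives the adjusted p ranged from 0.0131 to 0.197.

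Among the targets, Tnfaip2 and Tnfaip3 rose. Tnfaip2 encodes a cytokine-induced protein of endothelial cells that takes part in membrane protrusions. It read 11.45, 11.34 and 11.40 on control and 11.78, 11.98 and 11.96 on L1CAM arrays. All L1CAM arrays lay above all control arrays, with L1CAM replicate 1 the lowest of the 3. Tnfaip2 rose 1.42-fold, from 11.40 ± 0.05 to 11.91 ± 0.11 (SD, n = 3 arrays), by 0.51 (SE 0.07, limma adjusted p = 0.00448).

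Tnfaip3 encodes A20, a ubiquitin-editing enzyme that dampens signalling to IKK. Its values were 6.96, 6.94 and 7.00 in control and 7.24, 7.57 and 7.56 in L1CAM cells. The groups did not overlap, and L1CAM replicate 1 lay about midway between the control arrays and the other L1CAM arrays. Tnfaip3 rose 1.41-fold, from 6.97 ± 0.03 to 7.46 ± 0.19 (SD, n = 3 arrays), by 0.49 (SE 0.09, limma adjusted p = 0.0135). Without L1CAM replicate 1 the rise was 0.60 (SE 0.06, adjusted p = 0.000162). Leaving out any 1 of replicates 2 and 3 of either group ended the call, as did an ordinary linear model, with adjusted p over the alternatives from 0.000162 to 0.101. Tnfaip2 was called in 15 of the 16 alternatives and missed the threshold in the ordinary linear model (adjusted p 0.000305 to 0.0552 over the 16).

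Birc3 encodes cIAP2, a ubiquitin ligase of TNF receptor complexes and a target of NF-kappaB. It read 7.21, 7.55 and 7.52 on control and 7.16, 6.86 and 7.10 on L1CAM arrays. The groups did not overlap, with control replicate 1 only just above L1CAM replicate 1. The difference of -0.39 (SE 0.11), lower in L1CAM cells, was not called (limma adjusted p = 0.0583). Without L1CAM replicate 1 it was -0.45 (SE 0.12) and passed (adjusted p = 0.0244), and the adjusted p over the alternatives ran from 0.0175 to 0.198.

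**Figure D2:**
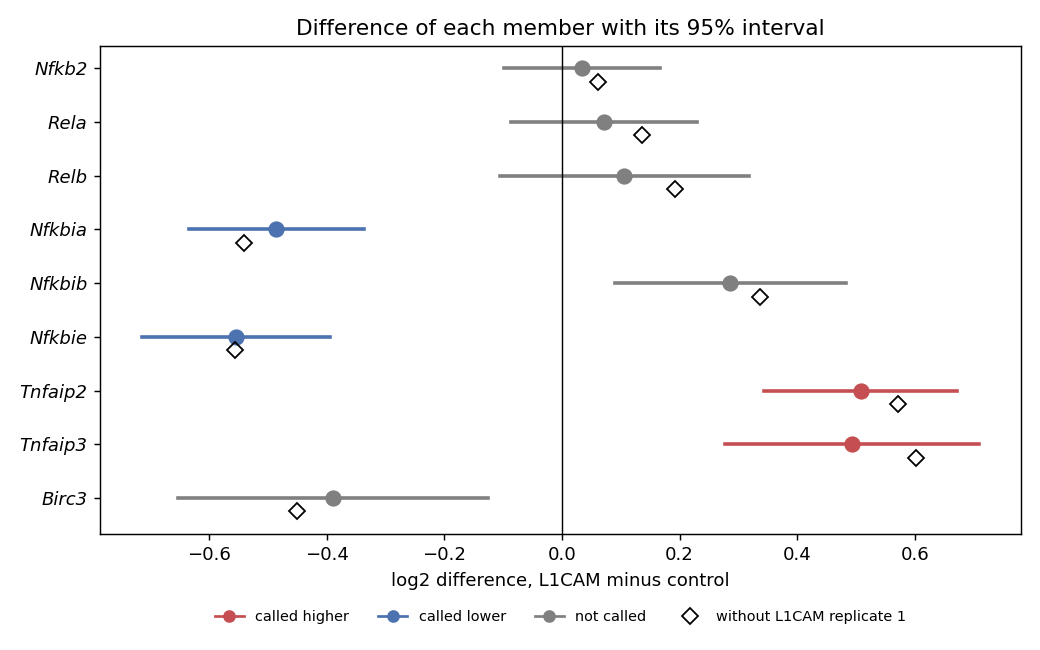
Log2 difference, L1CAM minus control (horizontal axis), of each measured gene with its 95% interval from the limma fit, not adjusted for multiple testing; open diamonds give the difference without L1CAM replicate 1. Nfkbia (-0.49) and Nfkbie (-0.55) were called lower and Tnfaip2 (0.51) and Tnfaip3 (0.49) higher; the intervals of Nfkbib and Birc3 exclude 0, but neither gene passed after adjustment.

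L1CAM replicate 1 departed less from the control mean than both other L1CAM arrays in all 9 genes. The same was true of 47.0% of all genes tested and 71.2% of all genes called. For Nfkbia the departures were -0.38, -0.57 and -0.51 in L1CAM replicates 1, 2 and 3, for Tnfaip2 0.38, 0.58 and 0.56, and for Tnfaip3 0.28, 0.61 and 0.60. Nfkbie was the exception in size, with -0.549, -0.555 and -0.559. In Nfkb2, Rela and Relb the departure of L1CAM replicate 1 was also opposite in sign to that of replicates 2 and 3 (-0.06 against 0.15 and 0.12 for Rela).

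**Figure D3:**
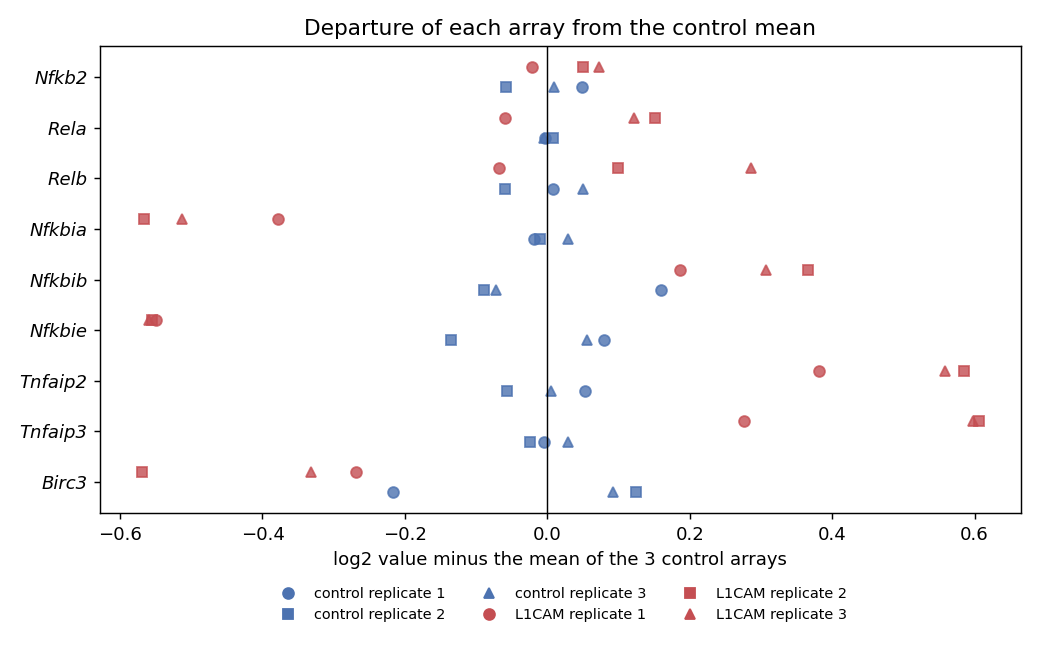
Log2 value of each array minus the mean of the 3 control arrays (horizontal axis) for each measured gene; blue symbols are control and red symbols L1CAM arrays, and the shape gives the replicate. The red circle, L1CAM replicate 1, lies nearer to 0 than the other red symbols in all 9 genes, by a wide margin for Tnfaip3 (0.28 against 0.61 and 0.60) and hardly at all for Nfkbie.

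The promoters of the 4 called genes are shown because each holds a match to the kappaB consensus, the kind of sequence that NF-kappaB dimers bind. Whether the matches bear on the differences was not tested. Each sequence is the 250 bases before the annotated start in RefSeq (GRCm38.p6), read 5′ to 3′ along the gene, and capitals mark matches to the 10-base kappaB consensus on either strand. Positions are counted from the start, with -1 the base just before it.

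Nfkbia (chr12:55492648-55492897, minus strand): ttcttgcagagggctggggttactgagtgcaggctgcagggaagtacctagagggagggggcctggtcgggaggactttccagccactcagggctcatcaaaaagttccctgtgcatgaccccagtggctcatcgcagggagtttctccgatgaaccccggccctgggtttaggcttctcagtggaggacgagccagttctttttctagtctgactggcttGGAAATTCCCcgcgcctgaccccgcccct
Nfkbie (chr17:45555450-45555699, plus strand): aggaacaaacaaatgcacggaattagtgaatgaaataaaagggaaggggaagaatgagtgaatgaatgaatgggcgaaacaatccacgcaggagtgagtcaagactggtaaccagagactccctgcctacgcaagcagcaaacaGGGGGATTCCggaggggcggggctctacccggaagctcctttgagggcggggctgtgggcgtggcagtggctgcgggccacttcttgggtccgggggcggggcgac
Tnfaip2 (chr12:111442411-111442660, plus strand): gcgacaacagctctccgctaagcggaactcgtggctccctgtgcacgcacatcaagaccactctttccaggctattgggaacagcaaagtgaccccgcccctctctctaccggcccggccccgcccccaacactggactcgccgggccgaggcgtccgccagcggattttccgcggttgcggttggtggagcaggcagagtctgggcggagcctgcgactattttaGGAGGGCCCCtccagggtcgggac
Tnfaip3 (chr10:19015411-19015660, minus strand): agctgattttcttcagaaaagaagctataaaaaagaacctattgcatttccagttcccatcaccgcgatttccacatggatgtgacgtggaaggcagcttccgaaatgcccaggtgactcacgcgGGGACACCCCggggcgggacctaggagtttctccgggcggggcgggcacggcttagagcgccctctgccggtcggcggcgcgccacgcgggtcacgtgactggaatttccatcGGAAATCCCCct

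The match in Nfkbia lay at -29 to -20 and that in Nfkbie at -106 to -97. Tnfaip2 held 1 match at -24 to -15, and Tnfaip3 held 2, at -125 to -116 and -12 to -3 of the more upstream of its 2 listed starts, the one shown; the window of the other start held 0. Such matches stood both in genes that fell and in genes that rose. Windows of 300 bases, from 250 before to 50 after a start, were listed for 8 of the 10 genes, all but Nfkb1 and Relb. Of these 8, 5 held at least 1 match (Nfkb2, Nfkbia, Nfkbie, Tnfaip2 and Tnfaip3) and Rela, Nfkbib and Birc3 held none in these windows. Over all of RefSeq's listed starts, 9.55% of 27025 genes, and 8.46% of 32851 windows, held a match. The 8 genes were chosen as NF-kappaB genes, some of them as its targets, so this comparison is not a test. Nfkb2, which was not called, has 3 listed starts and held a match in the window of each. A match is a string of letters, not a site shown to be bound.

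The gene with the smallest p was Nfkbie. The 5 genes whose values ran closest to it over the 6 arrays, by root mean square difference of their departures from the control mean, were Frrs1 (0.044), Vav2 (0.044), Hoxa3 (0.046), Tbc1d30 (0.049) and Wipi1 (0.050). Their differences were between -0.62 for Tbc1d30 and -0.51 for Hoxa3. These genes were picked for closeness to Nfkbie on the same arrays, so differences near its own follow from the choice.

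The wider pathway was read through 9 lists with 111 genes that are not among the 10 above, of which 101 were measured. Of these, 19 rose (18.8%, against 6.85% of all genes) and 5 fell (4.95%, against 8.19%). Their median difference was 0.08, against 0.02 over all genes. The groups did not overlap in 37 of the 101, among them all 24 called genes, beside 34.6% of all genes tested. Of the 24, 8 kept their call whichever array was left out. The matching share of all called genes was not counted. Without L1CAM replicate 1, 28 of the 101 were called higher (27.7%, beside 12.0% of all genes) and 6 lower (5.94%, beside 12.9%). Leaving out control replicates 2 or 3 left 6 or 5 higher calls, and leaving out L1CAM replicates 2 or 3 left 10 or 8, with 4 lower calls each time. In these 4 fits the share of all genes called higher was also lower, at 2.28%, 2.37%, 3.12% and 2.78%.

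**Figure D4:**
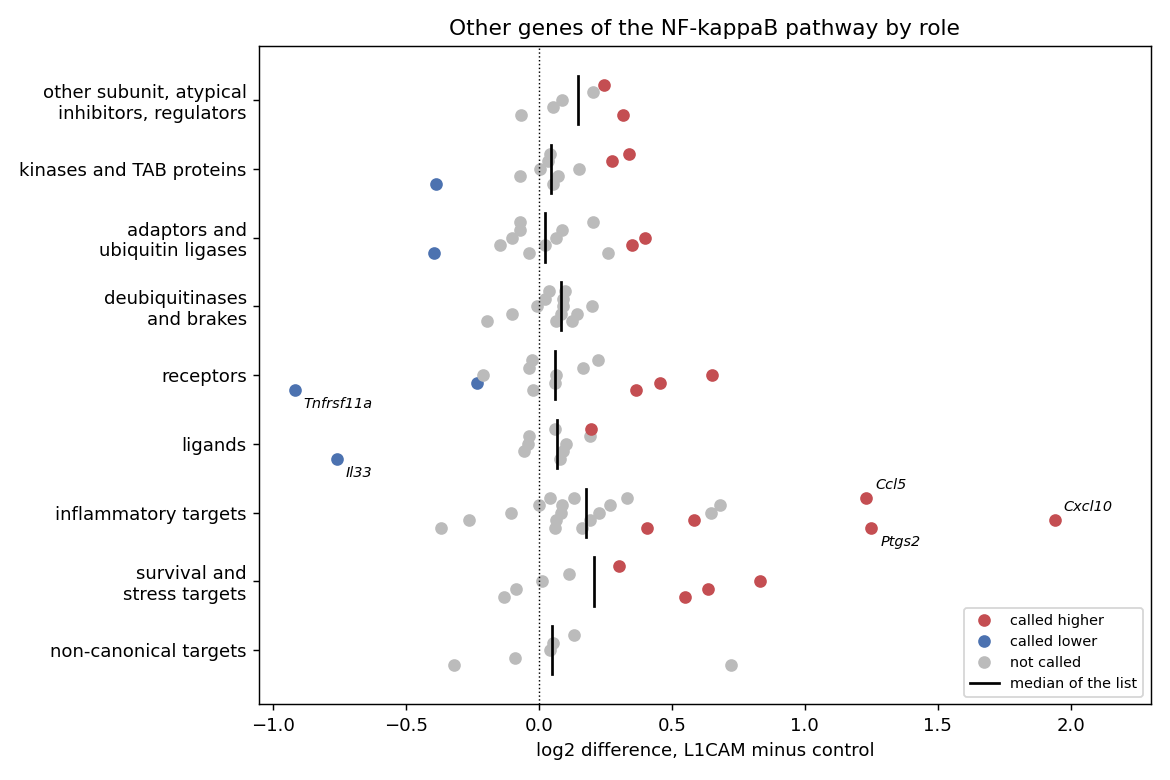
Log2 difference, L1CAM minus control (horizontal axis), of the 101 other measured pathway genes, 1 point per gene, in 9 lists by role; red and blue points were called higher and lower, and black lines mark list medians. Called rises were 5 of 22 inflammatory (22.7%) and 4 of 8 survival targets (50%), beside 6.85% of all genes. The share was 23.1% among receptors and 33.3% among the other subunits, atypical inhibitors and regulators. The deubiquitinases and brakes and the non-canonical targets hold no called gene.

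Close to the core of the pathway, Rel and Nkiras2 rose, out of 6 other subunits, atypical inhibitors and regulators. That was 33.3% called higher, beside 6.85% of all genes, and 0 were called lower, beside 8.19%. Rel encodes c-Rel, the subunit best known from lymphocytes; it went from 9.18 ± 0.11 to 9.50 ± 0.11 (SD, n = 3 arrays), by 0.32 (limma adjusted p = 0.0407). Nkiras2, a small GTPase-like protein that binds I-kappaB-beta, rose by 0.25 (adjusted p = 0.0338). Both calls were lost without any single array other than L1CAM replicate 1. The atypical inhibitors Nfkbiz (0.20, adjusted p = 0.414) and Bcl3 (-0.07, adjusted p = 0.724) were not called.

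Of 10 measured kinases and their partners, 2 rose (20%, beside 6.85% of all genes) and 1 fell (10%, beside 8.19%). Ikbkb, the catalytic IKK subunit of the canonical pathway, rose by 0.27 (SE 0.07, limma adjusted p = 0.0312), while its scaffold Ikbkg (0.15, adjusted p = 0.149) and Map3k14, the NIK kinase of the non-canonical pathway (0.04, adjusted p = 0.70), were not called. The call of Ikbkb held without L1CAM replicate 1 or L1CAM replicate 2 and was lost without any other array. Map3k8, a kinase released from the Nfkb1 product, rose by 0.34 (adjusted p = 0.0261) from a control mean of 6.54, near the array medians, and was not called without control replicate 2, control replicate 3 or L1CAM replicate 3. Ikbke, an IKK-related kinase of the interferon response, fell 1.31-fold, from 9.08 ± 0.06 to 8.70 ± 0.06 (SD, n = 3 arrays), by -0.38 (adjusted p = 0.0064), and kept its call whichever array was left out.

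Of 13 measured adaptors and ubiquitin ligases, 2 rose (15.4%, beside 6.85% of all genes) and 1 fell (7.69%, beside 8.19%). Traf1, an adaptor of TNF receptors and itself a target of NF-kappaB, rose by 0.40 (SE 0.07, limma adjusted p = 0.0127). Its control mean of 6.23 lay below the array medians, and its call was lost without control replicate 3 or L1CAM replicate 3. Xiap, an inhibitor of caspases, rose by 0.35 (adjusted p = 0.0311), a call that, of the 6 fits that left out an array, held only in that without L1CAM replicate 1. Irak2, a kinase of interleukin-1 and Toll-like receptor complexes, fell 1.31-fold (-0.39, SE 0.06, adjusted p = 0.00734). Birc2, the closest relative of Birc3, differed by -0.15 (adjusted p = 0.347) and Traf2 by 0.09 (adjusted p = 0.339), and neither was called. Among 13 deubiquitinases and other brakes limma called 0, with 1 at an unadjusted p under 0.05, beside 5788 of all 19938 genes. The deubiquitinase Cyld read 8.77, 8.33 and 8.42 on the L1CAM arrays against 8.68 to 8.72 on control arrays (-0.20, adjusted p = 0.283). Cyld was lower without L1CAM replicate 1 (-0.33, adjusted p = 0.00459). The A20 partner Tnip1 differed by 0.12 (adjusted p = 0.248), Irak3 by 0.20 (adjusted p = 0.0615) and Commd1 by 0.14 (adjusted p = 0.222).

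Receptors changed in both directions. Of 13 measured, 3 rose (23.1%, beside 6.85% of all genes) and 2 fell (15.4%, beside 8.19%). Tnfrsf11a, which encodes RANK, fell 1.89-fold, from 8.31, 8.19 and 8.20 on control to 7.55, 7.29 and 7.10 on L1CAM arrays (-0.92, SE 0.11, limma adjusted p = 0.00248). Tnfrsf1a, the main TNF receptor, fell by -0.23 (adjusted p = 0.0346). Tnfrsf21, a death receptor, rose 1.57-fold (0.65, adjusted p = 0.00237). The Toll-like receptors Tlr4 for endotoxin (0.46, adjusted p = 0.00764) and Tlr3 for double-stranded RNA (0.37, adjusted p = 0.0101) also rose. Tnfrsf11a, Tnfrsf21 and Tlr4 were called in each of the 6 fits that left out an array, Tlr3 lost its call without control replicate 3, and Tnfrsf1a was called in 1 of these 6 fits, that without L1CAM replicate 1. Ltbr (-0.03, adjusted p = 0.888) and Cd40 (-0.02, adjusted p = 0.933), which feed the non-canonical pathway, were not called.

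Most ligands were dim. Of 10 measured, 1 lay above the median on all arrays, and Tnf, Il1a and Il1b lay below it on every array, with differences of 0.08, 0.19 and -0.06 (limma adjusted p = 0.60, 0.43 and 0.816). Il33, an alarmin found in cell nuclei, fell by -0.76 (SE 0.06, adjusted p = 0.000553), from 6.04 ± 0.07 to 5.28 ± 0.06 (SD, n = 3 arrays). Ltb, a lymphotoxin, rose by 0.20 (adjusted p = 0.0453) and lost this call without any single array other than L1CAM replicate 1. Both Il33 and Ltb lay below the array medians in both groups.

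Of the 3 lists of further target genes, the inflammatory and survival lists held only called rises and the non-canonical list no call. Among the core genes that NF-kappaB induces, Nfkbia and Nfkbie were called lower and Tnfaip2 and Tnfaip3 higher. Of 22 measured inflammatory targets 5 rose (22.7%, beside 6.85% of all genes) and 0 fell (beside 8.19%). Their median difference was 0.18, beside 0.02 over all genes. An unadjusted limma p under 0.05 was found in 9 of the 22, beside 5788 of all 19938 genes. Cxcl10, a chemokine that interferons also induce, read 7.50, 7.25 and 7.37 on control and 8.63, 9.35 and 9.96 on L1CAM arrays. It rose 3.84-fold (1.94, SE 0.29, limma adjusted p = 0.00556), the largest difference in these lists, and kept its call whichever array was left out. Ptgs2, the inducible cyclooxygenase, read 10.56, 10.22 and 10.53 on control and 11.10, 11.90 and 12.06 on L1CAM arrays and rose 2.38-fold (1.25, SE 0.23, adjusted p = 0.0131). Ccl5, a chemokine for T cells that interferons also induce, rose 2.35-fold (1.23, SE 0.26, adjusted p = 0.0191). In all 3 genes L1CAM replicate 1 was the lowest L1CAM array and lay above every control array. Ptgs2 and Ccl5 lost their calls without control replicate 2, control replicate 3 or L1CAM replicate 2. The fifth was Csf1, a macrophage growth factor (0.58, adjusted p = 0.0259), named after its value was seen.

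The endothelial adhesion molecules among these targets differed from one another in their calls. Vcam1, which binds leukocyte integrins, rose from 5.96 ± 0.05 to 6.36 ± 0.05 (SD, n = 3 arrays), by 0.41 (SE 0.06, limma adjusted p = 0.00449), below the array medians in both groups. Icam1 measured 6.60 ± 0.04 and 6.74 ± 0.07 (0.13, adjusted p = 0.183) and was not called. Sele, E-selectin, read 7.79, 7.67 and 7.95 on control and 7.86, 8.14 and 8.41 on L1CAM arrays (0.33, adjusted p = 0.157). It was not called, and passed without L1CAM replicate 1 (0.47, adjusted p = 0.0125). Whether Vcam1, Icam1 and Sele changed by different amounts was not tested. The chemokines Cxcl1 (0.08, adjusted p = 0.549) and Ccl2 (-0.26, adjusted p = 0.722) were not called, and Ccl2 read 8.74 on L1CAM replicate 1 against 9.52 to 10.36 on the other 5 arrays.

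**Figure D5:**
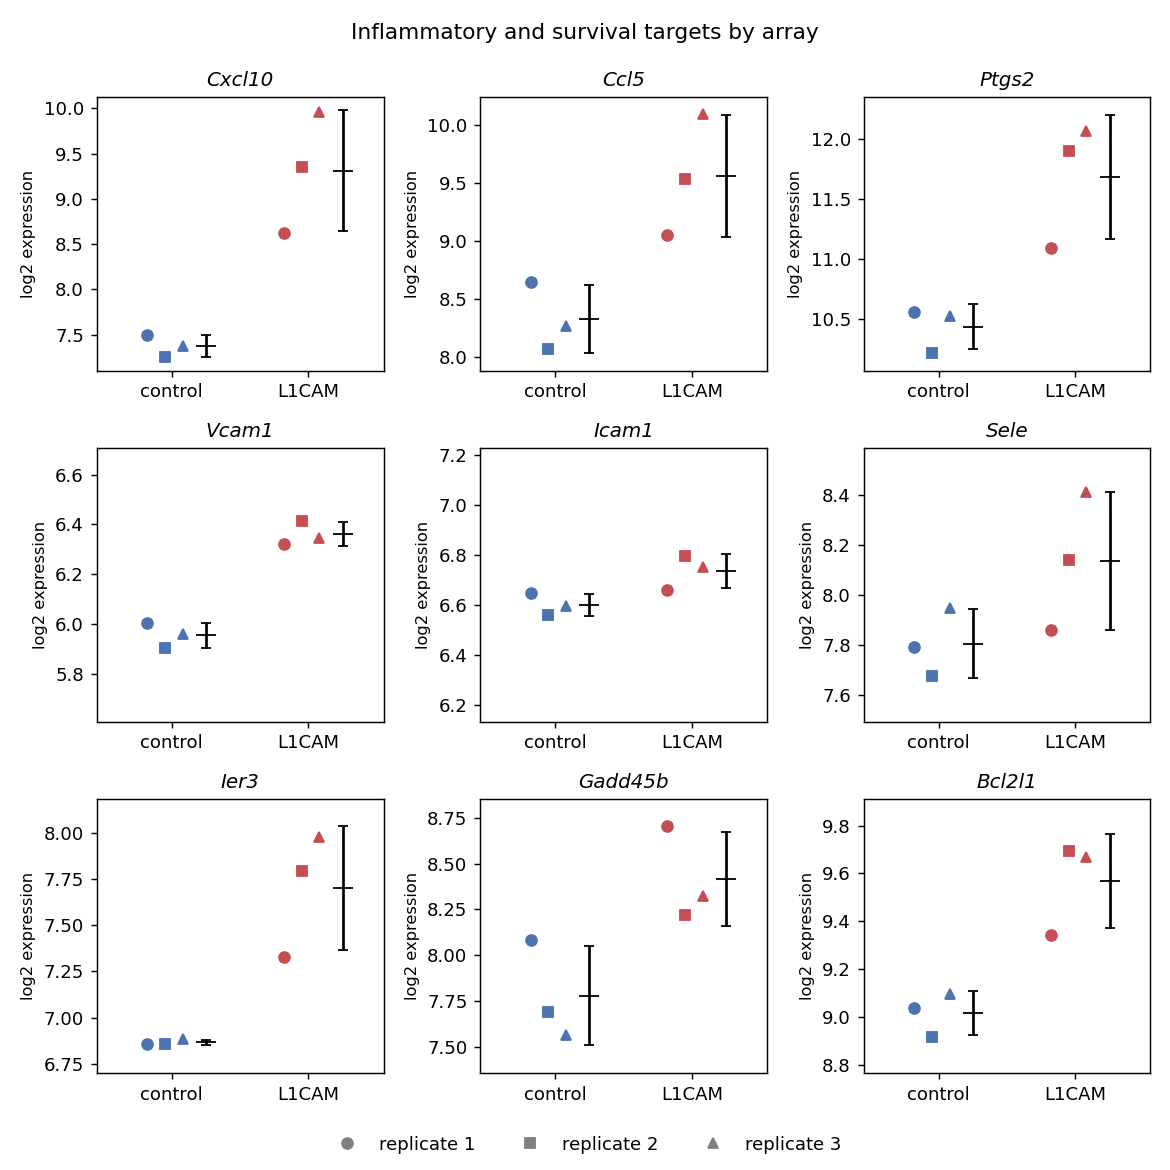
Log2 expression (vertical axes, scaled per gene) of 9 inflammatory and survival targets on the 3 control (blue) and 3 L1CAM (red) arrays, with symbols for the replicate and black bars for mean and SD. Cxcl10, Ccl5 and Ptgs2 rose 3.84-, 2.35- and 2.38-fold with a wide spread among L1CAM arrays, while Icam1 (0.13) and Sele (0.33) were not called.

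Of 8 measured survival and stress targets 4 rose (50%, beside 6.85% of all genes) and 0 fell (beside 8.19%). Their median difference was 0.21, beside 0.02 over all genes. Ier3, an immediate early gene, read 6.86, 6.86 and 6.88 on control and 7.33, 7.79 and 7.98 on L1CAM arrays and rose 1.78-fold (0.83, SE 0.15, limma adjusted p = 0.011). Bcl2l1, the anti-apoptotic Bcl-xL, rose 1.47-fold (0.55, SE 0.10, adjusted p = 0.0126). Gadd45b, a stress sensor, rose by 0.64 (adjusted p = 0.0383), and Sqstm1, the autophagy receptor p62, by 0.30 (adjusted p = 0.026). Several of these genes also answer to other pathways, and their calls were less stable than those of Nfkbia and Nfkbie: Ier3 lost its call without control replicate 2 or 3, Bcl2l1 without control replicate 2 or L1CAM replicate 3, and Gadd45b and Sqstm1 without either of control replicates 2 and 3 or L1CAM replicates 2 and 3. Limma called 0 of 6 measured targets of the non-canonical pathway, with 2 of the 6 at an unadjusted p under 0.05, beside 5788 of all 19938 genes. Among the 6 targets, the chemokine Cxcl12 read 8.90, 8.06 and 8.11 on L1CAM and 7.57 to 7.71 on control arrays (0.72, adjusted p = 0.052). Cxcl12 passed without L1CAM replicate 1 (0.45, adjusted p = 0.00138). Madcam1, an adhesion molecule of mucosal vessels, differed by -0.32 (adjusted p = 0.0904).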

How the data were processed

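Total RNA of 3 control and 3 L1CAM cultures was hybridised to Affymetrix arrays. The authors deposited log2 expression values per probe set, which the submitters' processing notes credit to RMA (Affymetrix Expression Console 1.1); the array design's genome build is not given in the sources used here. Of 35512 probe sets, 21789 had 1 gene symbol, 1621 several and 12102 were not listed. Symbols were checked through Entrez identifiers, which changed 0. For the 999 genes with several probe sets the brightest was used, leaving 19938 genes. Groups were compared across all genes by limma 3.58.1 (lmFit, then eBayes; R 4.3.3), two-sided, with Benjamini-Hochberg adjustment at 0.05; intervals are unadjusted 95% intervals. In simulated data over 19938 genes, 50 genes were changed at each size, with independent normal noise per gene. The test recovered 70% of genes changed by 0.5 (log2) and 90% of those changed by 1, with 7 unchanged genes called. With no gene changed it called 0. In the data 15.0% of genes were called and L1CAM replicate 1 stood apart from the other L1CAM arrays, which the simulation did not copy. Its rates therefore need not hold for these arrays. Arrays are limited in precision by their number, 3 per group, and p-values measure the spread between cultures of each group's transfectant. They do not measure the spread between transfectants.

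The 10 core genes and the pathway lists were all chosen with earlier results of these data known. All 9 measured core genes are named, with up to 4 called genes per direction of each pathway list, smallest p first, the 2 with the smallest p where none was called, and a set of index genes (Chuk, Traf3 and Il1r1 among them were not matched). The kappaB consensus was searched in RefSeq promoter windows. Figures were made with Python 3.11.15, pandas 2.3.3 and matplotlib 3.10.9.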

Additional observations from a re-analysis of the deposited data

How the results depend on the processing

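The 10 alternative settings and the 6 fits that leave out 1 array changed the direction of no measured core gene. An ordinary linear model called 581 genes in all, 0 core genes higher, and 2 wider pathway genes higher and 2 lower; array weights called 5191 genes. Leaving out 1 array gave 1033 (without control replicate 2) to 4952 calls (without L1CAM replicate 1), 1 to 3 core genes higher, 2 to 3 lower, 5 to 28 wider pathway genes higher and 4 to 6 lower. No pairing of the arrays by replicate number was seen in the correlations of same-numbered deviations (-0.10, -0.10 and -0.03), which does not exclude pairing in single genes. With a replicate block 2067 genes were called, with 2 core genes higher, 2 lower and 13 and 5 wider pathway genes. Among the genes named in the text, 5 that were not called changed sign. With array medians at 0, Ltbr differed by 0.0048 and Cd40 by 0.011, and with array weights Ccl2 by 0.081. Leaving out 1 array gave -0.14 to 0.031 for Bcl3, -0.13 to 0.081 for Il1b, -0.078 to 0.070 for Ltbr, -0.11 to 0.079 for Cd40 and -0.59 to 0.22 for Ccl2, where the positive value came without L1CAM replicate 1. The cause of these changes was not tested. Signal over background limits the dim genes.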
